A study of Rattus norvegicus with 28 samples.

Results

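The data describe how the transcripts of rat hepatocytes differed between a low and a 100 times higher concentration of the dioxin TCDD. The comparison takes 8 of the 28 arrays of the series: the 4 labelled TCDD 0.01 nM and the 4 labelled TCDD 1 nM, chosen by their labels alone. Primary hepatocytes came from 2 adult female Sprague-Dawley rats, called A and B here, and were plated on Matrigel, a basement membrane gel. All cells, controls included, were kept for 48 h in medium with 0.1 uM dexamethasone, a glucocorticoid, and with an insulin, transferrin and selenium supplement. They were then exposed for 24 h to TCDD in 0.1% DMSO or to DMSO alone, and RNA of 3 dishes was pooled per rat and treatment. The remaining arrays carried untreated cells, TCDF at 0.1 or 10 nM, and PeCDF at 0.02 or 2 nM. Every array set the RNA of 1 treatment against DMSO RNA of the same rat, and each rat was measured on 2 arrays with the dyes swapped. The difference between the doses is called the step: the log2 ratio of TCDD over DMSO at 1 nM minus that at 0.01 nM, with the 2 arrays of a rat averaged, so that n = 2 animals at each dose. It is not stated whether all arrays of a rat carried the same preparation of DMSO RNA. With 2 animals, p-values rest on a spread estimated over all 7 groups.

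TCDD is the reference ligand of the aryl hydrocarbon receptor (AHR), a transcription factor that waits in the cytoplasm in a complex with heat shock protein 90 and co-chaperones. Once a ligand binds, AHR moves into the nucleus, pairs with ARNT and binds DNA at a short core element, from which it drives a battery of genes for the oxidation and conjugation of foreign compounds. In liver the same receptor is known for changes in lipid, glucose and bile acid metabolism after dioxin exposure.

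Between 74.2 and 94.8% of probes were well above background in the TCDD channel of the 8 arrays, and 20 to 140 probes were saturated. Both TCDD doses were scanned in the same session as the untreated cells, and the furans in a later one. Within the session all arrays of 1 dye orientation were scanned on 1 day and those of the other on another day, so dye and scan day cannot be told apart. The hepatocyte markers were all well above background on every array (10 of 10), and the log2 of their summed level in the TCDD channel ran from 18.42 to 19.09 at 0.01 nM and from 18.32 to 18.94 at 1 nM. Sums for other liver cells, which cannot be set against each other because probes differ in brightness, were 13.72 to 14.26 at 0.01 nM and 13.77 to 14.25 at 1 nM for Kupffer cells and leukocytes, 12.33 to 12.45 and 12.03 to 12.29 for stellate cells, 11.48 to 11.85 and 11.28 to 11.75 for sinusoidal endothelium, and 11.88 to 12.05 and 11.61 to 11.71 for cholangiocytes. The stellate and cholangiocyte sums did not overlap between the doses, and both were lower at 1 nM. The median ratio over the stellate markers did overlap, at -0.03 to 0.05 and -0.08 to 0.05, and that over the cholangiocyte markers was -0.02 to 0.02 and -0.06 to -0.03. A sum weighs bright markers most, and the median step was -0.05 over the stellate and -0.07 over the cholangiocyte markers. The hepatocyte sums overlapped over all arrays, but within each dye orientation they were lower at 1 nM. With TCDD RNA in red they were 18.42 and 18.46 at 0.01 nM and 18.34 and 18.32 at 1 nM. With it in green they were 18.97 and 19.09, then 18.94 and 18.92. The median ratio over the hepatocyte markers differed in sign between the orientations. With TCDD RNA in red it was -0.17 in both rats at 0.01 nM, and -0.42 and -0.65 at 1 nM. With it in green the median was 0.32 and 0.54, then 0.32 and 0.43. In a culture measured as a whole, fewer cells of a type and less RNA per cell cannot be told apart.

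The step moved a minority of genes, more of them down than up. Of 34813 genes tested, limma called 1303 (3.74%), taking a Benjamini-Hochberg adjusted p under 0.05 as the threshold, of which 485 were higher at 1 nM (1.39%) and 818 lower (2.35%). Of the 485, 108 are mostly dim genes that were also called below DMSO at 0.01 nM, a comparison that shares arrays with the step, and 15 of these 108 had separate arrays; they are described further on. Most changes were small: among the genes called higher, 419 rose by under 1.5-fold, 45 by 1.5- to 2-fold and 21 by over 2-fold (0.0603% of all genes), and the median step was 0.37. Among those called lower, the corresponding counts were 526, 228 and 64 (0.184%), and the median was -0.50. The 4 arrays at 1 nM lay wholly above the 4 at 0.01 nM for 378 of the genes called higher (1.09%) and wholly below for 788 of those called lower (2.26%). Such a separation was common whatever the test gave, since it held for 6.85% of all genes upward and 8.19% downward, the called genes included. With no background correction the calls were 533 higher and 498 lower, and with median centring in place of loess they were 4 higher and 2 lower, so the balance between the directions, and nearly all calls, depended on these choices. Leaving out 1 animal moved both counts and the balance. Genes called higher outnumbered those called lower without rat A at 0.01 nM, without rat B at 0.01 nM and without rat B at both doses. In the other leave-outs more genes were called lower.

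Among the genes called higher were receptor targets, growth factors and chemokines, and among those called lower were enzymes of sugar and fat metabolism, conjugating enzymes and liver transcription factors. The 15 largest increases and the 15 largest decreases among called genes with a symbol and with separate arrays are described first, followed by each functional group. Where array values are listed they are log2 ratios of TCDD over DMSO, for rat A and then rat B, with TCDD RNA in the red channel first and in the green channel second.

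**Figure D1:**
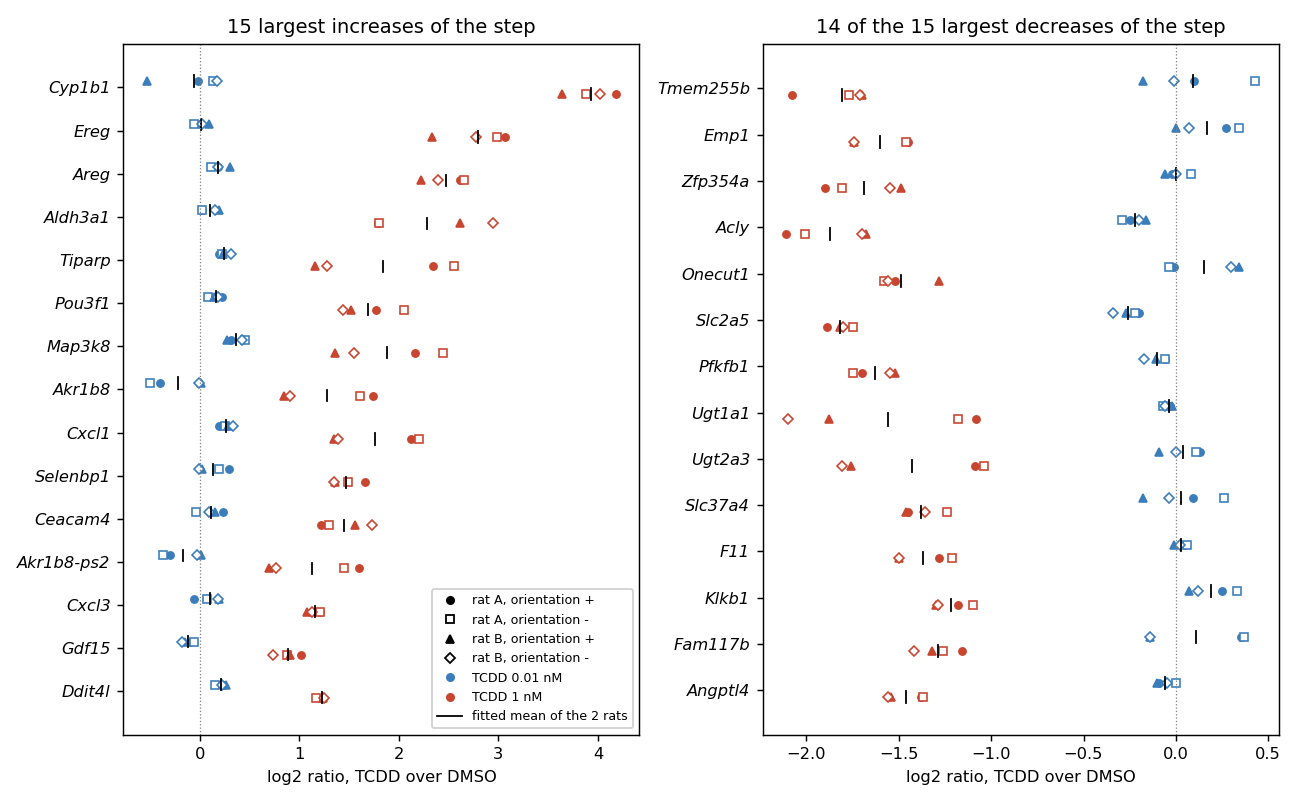
Log2 ratios of TCDD over DMSO RNA (horizontal axis) on each of the 4 arrays at 0.01 nM and the 4 at 1 nM, for the 15 genes with the largest increases (left) and 14 of the 15 with the largest decreases (right) of the step; each point is 1 array and each row 1 gene. At 0.01 nM the points lie near 0 for most of these genes, and at 1 nM they lie apart from them, as the choice of genes requires, up to 4.18 for Cyp1b1 and down to -2.11 for Acly.

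The receptor's own battery was where the largest step lay. Cyp1b1, a cytochrome P450 that oxidises polycyclic hydrocarbons and oestrogens, read -0.02, 0.13, -0.53 and 0.17 at 0.01 nM and 4.18, 3.88, 3.64 and 4.02 at 1 nM. The red array of rat B at 0.01 nM was thus below the DMSO level and the others there were close to it, while all arrays at 1 nM were far above it. The step was 3.99 ± 0.21 (SE, n = 2), or 15.9-fold, with a limma adjusted p of 3.19e-05. It was 3.78 with the 0.01 nM values from the arrays with TCDD RNA in green alone. At 0.01 nM the TCDD channel was well above background on 2 of 4 arrays, and a dimmer probe of the gene gave a step of 1.66 (adjusted p = 0.000235 among all probes).

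Aldh3a1, an aldehyde dehydrogenase, had ratios of 0.02, 0.02, 0.20 and 0.15 at 0.01 nM and of 1.79, 1.80, 2.61 and 2.95 at 1 nM. Rat B responded more than rat A at the upper dose, and the doses did not overlap. Its step of 2.19 ± 0.51 (4.55-fold) passed narrowly (adjusted p = 0.0465), and the highest adjusted p with 1 animal left out was 0.345. Tiparp, a mono-ADP-ribosyltransferase that feeds back on AHR, read 0.20, 0.23, 0.24 and 0.32 at 0.01 nM and 2.34, 2.55, 1.16 and 1.28 at 1 nM, so that here rat A was the stronger responder. Its step was 1.58 ± 0.35, a 3-fold rise (adjusted p = 0.0341, and up to 0.229 with 1 animal left out). Nfe2l2, which encodes the antioxidant regulator NRF2, rose by 0.77 ± 0.13 (adjusted p = 0.0111, and up to 0.141 with 1 animal left out), from ratios of 0.26 to 0.71 at 0.01 nM to ratios of 1.15 to 1.37 at 1 nM.

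Both Cyp1a enzymes were already above DMSO at the lower dose. Cyp1a2, a P450 of caffeine and arylamine metabolism, read 1.00, 1.01, 0.84 and 0.84 at 0.01 nM and 1.62, 1.68, 1.70 and 2.26 at 1 nM. The doses did not overlap, and the step was 0.89 ± 0.17 (adjusted p = 0.0187, and up to 0.279 with 1 animal left out). On 3 of 4 arrays the TCDD channel of this probe was saturated at 1 nM, and the unsaturated probe of the gene gave a step of 1.44, from 0.85 to 2.29 (adjusted p = 0.013 among all probes). Cyp1a1, the classic reporter of AHR activity, read 1.70, 2.02, 1.47 and 1.66 at 0.01 nM and 1.54, 2.01 and 1.40 on the arrays measured at 1 nM, and 1 array of rat A was missing there. Its TCDD channel was saturated on all 4 arrays of both doses, its value at 1 nM rested on rat B in the fit, and no fold is given.

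The other battery members did not pass the test. Nqo1, a quinone reductase, missed the threshold at 1.01 ± 0.26 (adjusted p = 0.0626), with ratios of 0.46 to 0.57 at 0.01 nM and 2.14, 1.89, 1.09 and 1.05 at 1 nM. Gsta2, a glutathione transferase, gave 0.95 (adjusted p = 0.162). With the animal as a block its adjusted p was 0.0196. Steps of 0.40 for Ugdh, 0.38 for Ugt1a6, 0.18 for Slc7a5 and 0.01 for Cyp2s1 had adjusted p-values of 0.153, 0.5, 0.338 and 0.942. In all, 5 of the 12 battery genes tested were called higher and none lower, against 1.39% of all genes called higher, and their median step was 0.83 against 0 over all genes. The count was 1 without rat A at 0.01 nM and 2 to 4 with other animals left out. Of the receptor complex itself (9 genes, Ahr, Arnt and heat shock protein 90 genes among them), limma called none, and none had an unadjusted p under 0.05. Ahr stood at -0.08 and Arnt at -0.12.

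**Figure D2:**
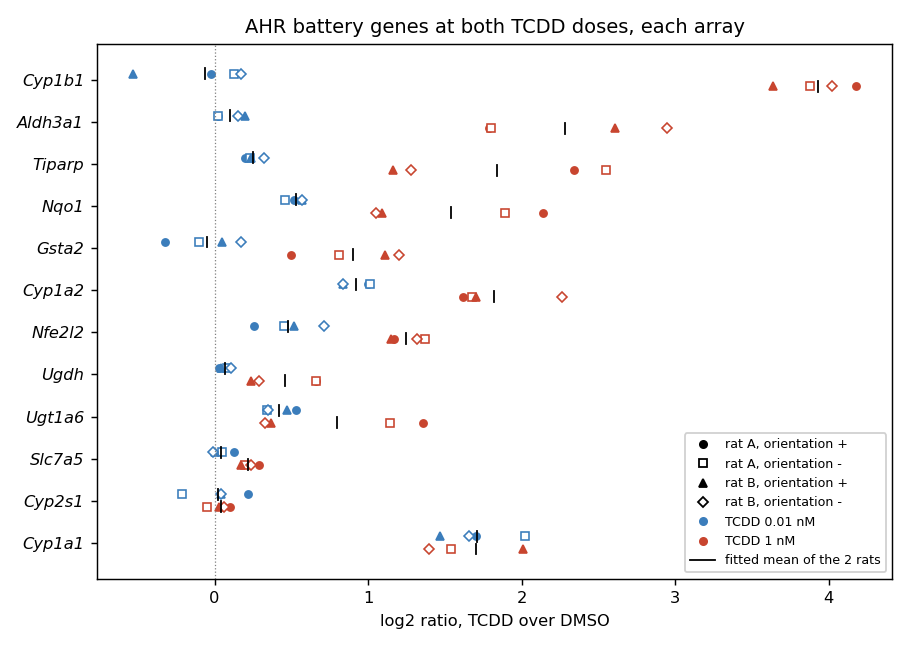
Log2 ratios of TCDD over DMSO (horizontal axis) on each array at 0.01 and 1 nM for the AHR battery genes (rows), 1 point per array. Cyp1a1 and Cyp1a2 lie at 0.84 or above at both doses. At 0.01 nM Nqo1, Nfe2l2 and Ugt1a6 lie between 0.26 and 0.71, and Tiparp is above 0 on all arrays too. Cyp1b1, Aldh3a1 and Tiparp lie between -0.53 and 0.32 at 0.01 nM and between 1.16 and 4.18 at 1 nM.

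Growth factors of the epidermal growth factor family came next in size. Ereg, which encodes epiregulin, read 0.00, -0.06, 0.09 and 0.02 at 0.01 nM and 3.07, 2.99, 2.33 and 2.77 at 1 nM. No array at the lower dose departed from DMSO by more than 0.09, and its TCDD channel was well above background on 2 of 4 arrays there. The step was 2.78 ± 0.25, or 6.86-fold (adjusted p = 0.000325). Areg, which encodes amphiregulin, moved from 0.18, 0.11, 0.31 and 0.18 to 2.61, 2.65, 2.22 and 2.39. Its step of 2.27 ± 0.32 was a 4.84-fold rise (adjusted p = 0.00409, and up to 0.0724 with 1 animal left out). Nrg1, the neuregulin ligand, rose by 0.63 (adjusted p = 0.0461), and a second probe of it gave 0.30 (adjusted p = 0.322). With an animal left out the step of Nrg1 was 0.48 to 0.78, and its call was lost each time. Egfr, the receptor for the first of these ligands, fell by 0.45 (adjusted p = 0.0108), from ratios of 0.14 to 0.25 to ratios of -0.30 to -0.17. With an animal left out the step of Egfr ran from -0.54 to -0.37. Its call was lost without rat A at 0.01 nM and without either rat at both doses. Of 12 genes of this family tested, 3 were called higher and 1 lower, and the median step was -0.05. Tgfa (-0.14), Hbegf (-0.06) and Btc (-0.12) did not pass. The count called higher was 1 without rat A and 2 in the other leave-outs.

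Sequence upstream of 3 of these genes is shown because AHR and ARNT bind the letters GCGTG, the core of the dioxin response element. The 250 bases before the start come from RefSeq on the GRCr8 assembly, 5′ to 3′ on the gene's strand, and capitals mark GCGTG or its reverse complement CACGC.
Cyp1b1 (chr6:21094315-21094564, + strand): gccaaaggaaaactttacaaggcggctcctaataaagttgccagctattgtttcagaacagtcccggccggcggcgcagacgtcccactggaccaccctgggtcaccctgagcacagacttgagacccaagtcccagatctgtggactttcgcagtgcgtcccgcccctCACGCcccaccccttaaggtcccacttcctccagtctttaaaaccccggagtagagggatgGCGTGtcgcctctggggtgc
Areg (chr14:17265642-17265891, - strand): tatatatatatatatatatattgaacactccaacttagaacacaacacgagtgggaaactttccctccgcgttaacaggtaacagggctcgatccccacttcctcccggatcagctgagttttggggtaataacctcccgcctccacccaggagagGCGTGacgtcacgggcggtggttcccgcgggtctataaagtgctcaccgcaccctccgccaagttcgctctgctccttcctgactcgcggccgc
Tiparp (chr2:152063519-152063768, + strand): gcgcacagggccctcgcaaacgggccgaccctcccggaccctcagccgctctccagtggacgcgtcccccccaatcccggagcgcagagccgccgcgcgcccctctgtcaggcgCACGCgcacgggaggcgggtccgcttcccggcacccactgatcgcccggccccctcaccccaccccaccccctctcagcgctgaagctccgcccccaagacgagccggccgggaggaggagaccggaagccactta
The matches began 81 and 20 bases before the start in Cyp1b1, 94 in Areg and 136 in Tiparp. Of the 39 genes searched by name (the largest steps and the battery), 30 had a promoter in the table and 13 of these held a match within 250 bases before and 50 after the start. Ddit4l and Nqo1 did, and so did Acly, Klkb1, Slc37a4 and Fam117b, which fell. Akr1b8, Ceacam4, Cxcl1, Gdf15 and Map3k8, among the largest increases, held no match, nor did Cyp1a2, Cyp2s1 and Nfe2l2 of the battery. Over all genes called higher with separate arrays, 90 of 170 promoters held the letters on either strand (52.9%), against 146 of 357 for those called lower (40.9%) and 5047 of 12123 for all genes tested (41.6%). The promoters of genes called higher were also richer in G and C, with a median of 61.2% against 58% and 58.3%. Neither share was tested, and a match is not evidence of binding.

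Chemokines and signalling genes made up a further set of increases. Cxcl1, a neutrophil chemokine, read 0.20, 0.26, 0.29 and 0.34 at 0.01 nM and 2.12, 2.20, 1.35 and 1.39 at 1 nM. The step was 1.49 ± 0.31 (2.81-fold, adjusted p = 0.0306, and up to 0.257 with 1 animal left out), with rat A above rat B. Cxcl3, its close relative, rose by 1.06 (adjusted p = 0.0157). Map3k8, a kinase upstream of MAP kinases and NF-kB, read 0.32, 0.46, 0.28 and 0.43 and then 2.16, 2.44, 1.36 and 1.55. Its step of 1.51 ± 0.29 was a 2.84-fold rise (adjusted p = 0.0175). Nfkb1, a subunit of NF-kB, rose by 0.67 (adjusted p = 0.0305), and its second probe gave 0.42 (adjusted p = 0.0938). Of the 24 chemokine and NF-kB genes tested, 4 were called higher and none lower, with a median step of 0.12. At an unadjusted p under 0.05, 9 were higher and 2 lower, against 7.86% and 9% of all genes. Cxcl2 had a larger step than any of them, 1.84, yet missed the threshold (adjusted p = 0.113). The count called higher was 0 without rat A, whether left out at both doses or at 0.01 nM alone, 4 without rat B at 1 nM, and 2 in each other leave-out.

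Some antioxidant genes rose. Of 26 known targets of NRF2, 6 were called higher and none lower. On an unadjusted p under 0.05, 10 were higher and none lower, against 7.86% and 9% of all genes. Txnrd1, a thioredoxin reductase, moved from 0.20, 0.23, 0.17 and 0.21 to 0.91, 0.87, 0.66 and 0.65. Its step was 0.57 (adjusted p = 0.00471), although dimmer probes of it gave 0.36 and 0.45 without passing. The cystine carrier Slc7a11 (0.36), the glutathione synthesis subunit Gclm (0.49), Akr7a3 (0.59) and Txn1 (0.27) rose as well. Akr1b8, an aldo-keto reductase, was the largest of the list, with -0.40, -0.50, 0.01 and -0.01 at 0.01 nM and 1.74, 1.61, 0.85 and 0.91 at 1 nM. It rose by 1.5 ± 0.26 (2.83-fold, adjusted p = 0.0109, and up to 0.121 with 1 animal left out). Akr1b8-ps2, a near-identical pseudogene, gave 1.30, and the probes may not tell the 2 apart. The median over the list was 0.09. Without rat A, at both doses or at 0.01 nM alone, fewer genes of the list were called higher than in the other leave-outs. Some genes of the list were called lower without rat A at both doses or at 1 nM alone. The absence of genes called lower thus did not hold in every leave-out. With the 0.01 nM values from the arrays with TCDD RNA in green alone, 6 were called higher and 1 lower. Dye differences do not cancel in that setting, because the 1 nM values kept both orientations.

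The remaining large increases were of mixed function. Pou3f1, a POU-domain transcription factor placed among the liver regulators here, read 0.23, 0.08, 0.14 and 0.18 at 0.01 nM and 1.77, 2.05, 1.52 and 1.44 at 1 nM, and rose by 1.53 ± 0.11 (2.89-fold, adjusted p = 9.29e-05). Ddit4l, an inhibitor of mTOR signalling, showed close replicates, with 0.24, 0.15, 0.27 and 0.23 against 1.24, 1.17, 1.24 and 1.25. Its step was 1.00 ± 0.07 (2.01-fold, adjusted p = 7.99e-05). Selenbp1, a selenium-binding protein, rose by 1.34, and Gdf15, a stress-induced cytokine, by 1.01. Ceacam4 rose by 1.34, and a second probe of it gave 1.53. Of the 15 largest increases, 6 kept their call with every animal left out in turn (Cyp1b1, Ereg, Pou3f1, Selenbp1, Gdf15 and Ddit4l), and all 15 kept their sign. The step was larger in rat A for 11 of the 15 and larger in rat B for 4, and for 5 the animals differed by over 1.5 times.

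Sugar metabolism held many of the decreases. Of 36 genes of glucose and fructose metabolism tested, 17 were called lower and none higher, against 2.35% of all genes called lower, and the median step was -0.65. The count called lower stayed between 12 and 17 with an animal left out. Pfkfb1, the liver form of the enzyme that sets fructose 2,6-bisphosphate, read -0.06, -0.06, -0.11 and -0.17 at 0.01 nM and -1.70, -1.75, -1.52 and -1.55 at 1 nM. It fell by 1.53 on the log2 scale (SE 0.06), a level 2.89-fold lower (adjusted p = 7.25e-06, the smallest of the genes named here). Gckr, a regulator of glucose phosphorylation in liver, fell by 1.19, from ratios of -0.11 to 0.10 to ratios of -1.29 to -1.11 (adjusted p = 7.99e-05).

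Fructose handling fell at several steps. Slc2a5, the fructose transporter, moved from -0.20, -0.22, -0.27 and -0.34 to -1.89, -1.75, -1.82 and -1.80. Its step was -1.56 ± 0.13 (2.95-fold lower, adjusted p = 0.000244). Fructokinase, Khk, fell by 0.77 (adjusted p = 0.0427) and Tkfc by 0.71. Slc37a4, the glucose 6-phosphate carrier of the endoplasmic reticulum, fell by 1.41, and its second probe gave -1.39. Fbp1 (-1.01) and G6pc1 (-0.72), enzymes of glucose formation, glycogen synthase, Gys2 (-1.18), and the glucose carrier Slc2a2 (-0.93) were all called lower. Gbe1 (-1.18) and Pgm1 (-0.95) moved as far without passing the test.

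Fatty acid synthesis showed 8 of 26 genes called lower and none higher, with a median of -0.28. Acly, which makes cytosolic acetyl-CoA from citrate, read -0.25, -0.29, -0.16 and -0.20 at 0.01 nM and -2.11, -2.01, -1.68 and -1.70 at 1 nM. That step of -1.65 ± 0.21 was 3.14-fold lower (adjusted p = 0.0021). Acaca, acetyl-CoA carboxylase, fell by 1.01 on its brightest probe (adjusted p = 0.000182), but its other probe gave -0.13 (adjusted p = 0.446). The desaturase Scd fell by 0.96 (adjusted p = 0.00114), the phosphatidate phosphatase Lpin1 by 0.72 and malic enzyme, Me1, by 0.38. Thrsp, a regulator of lipogenesis, was called too, at -1.19. Srebf1, the transcription factor SREBP1, fell by 0.70, with -0.36 on its second probe (adjusted p = 0.0901). Fasn, fatty acid synthase, gave -1.32 with an adjusted p of 0.124. With an animal left out 4 to 7 of these genes were called lower; the count was 4 without either rat at both doses, and 5 without rat A at 0.01 nM or rat B at 1 nM. At an unadjusted p under 0.05, 7.86% of all genes were higher and 9% lower. In cholesterol synthesis and uptake 3 of 26 were higher and 4 lower on that measure, and limma called 0 of the 26. Leaving out rat A at 1 nM called 2 of them lower.

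Of 37 genes of fatty acid oxidation and other targets of PPARA, the fasting-state lipid sensor, 16 were called lower and none higher, and the median was -0.47. Angptl4, a lipoprotein lipase inhibitor, fell by 1.40 (adjusted p = 0.000307), from between -0.10 and 0.00 to between -1.56 and -1.37. The hormone Fgf21 fell by 0.84 (adjusted p = 0.000709), the ketone body enzyme Bdh1 by 0.73, Cyp4a3 by 1.06, Cyp4a8 by 0.97, and the beta-oxidation subunits Hadh, Hadhb and Hadha by 0.84, 0.74 and 0.31. The count called lower was 8 without rat B at both doses or rat A at 0.01 nM, 10 without rat B at 1 nM, and 11 to 17 in the other leave-outs.

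**Figure D3:**
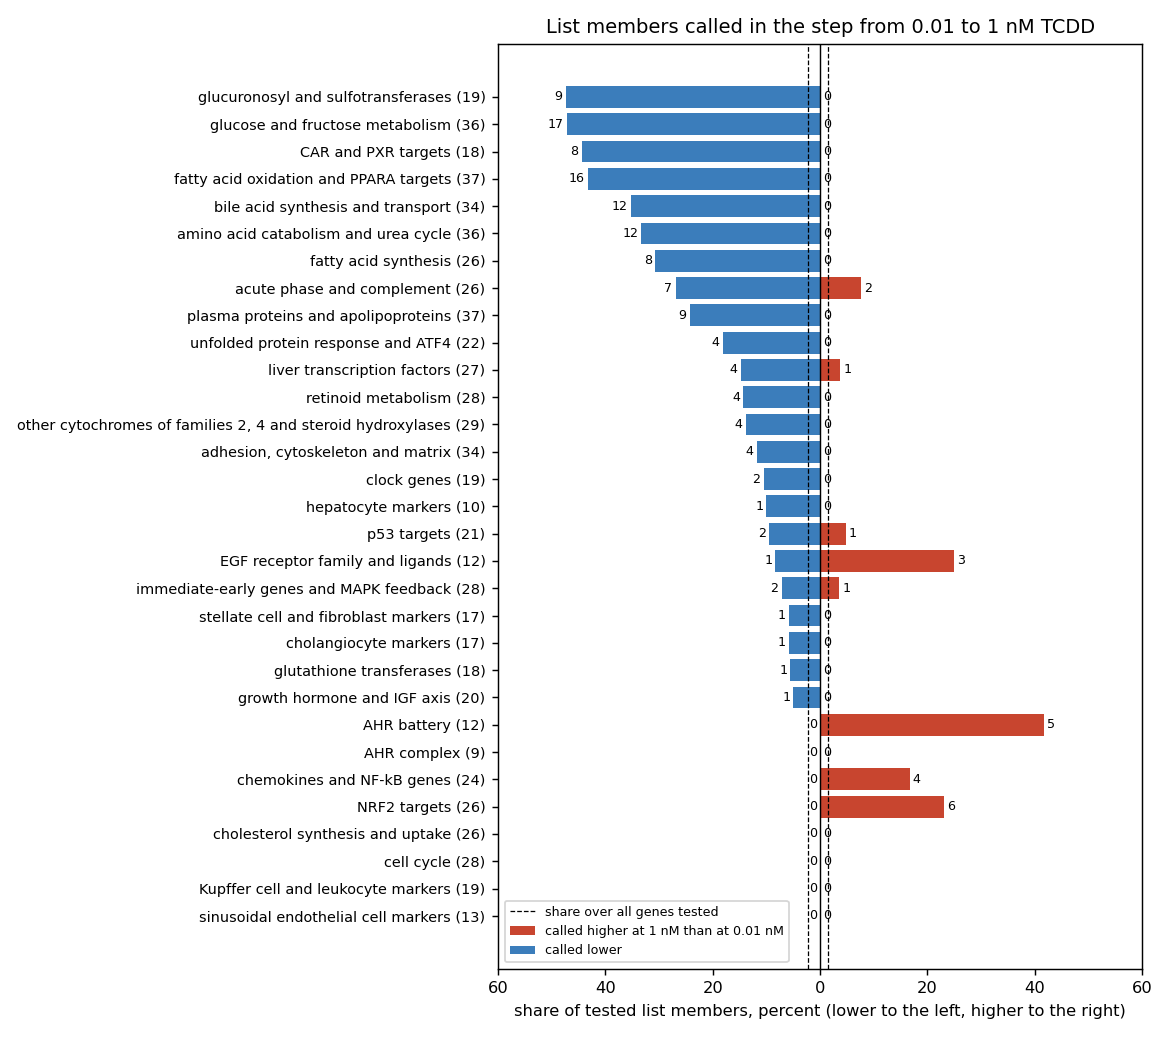
Share of the tested members of each gene list called higher (to the right) or lower (to the left) in the step, in percent, with the number tested in parentheses and all 34813 genes for comparison. Glucose and fructose metabolism (17 of 36) and fatty acid oxidation (16 of 37) extend far to the left, and the AHR battery (5 of 12) extends farthest to the right.

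Bile acid genes were called lower in 12 of 34 cases and higher in none, with a median of -0.32. Abcb4, the phospholipid exporter of the canalicular membrane, read 0.07, 0.07, 0.05 and 0.09 at 0.01 nM and -0.82, -0.80, -0.81 and -0.93 at 1 nM. It fell by 0.91 ± 0.06 (1.88-fold lower, adjusted p = 7.99e-05). Abcb11, the bile salt export pump, fell by 0.84, to ratios of -0.60 and -0.56 in rat A and of -1 and -1.05 in rat B (adjusted p = 0.00483). Uptake carriers fell with them, Slc10a1 by 0.99, Slco1a1 by 0.77 and Slco1a4 by 0.68. Enzymes of bile acid formation did so too: Cyp8b1 by 1.01, Akr1d1 by 0.71 and Cyp27a1 by 0.61. The bile acid receptor Nr1h4 fell by 1.05 (adjusted p = 0.00778). With animals left out the count ran from 4 (without rat A at 0.01 nM) through 5 (without rat B at 1 nM or at both doses) to 13.

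Among conjugating enzymes outside the battery, decreases outnumbered increases. Of 19 glucuronosyl and sulfotransferases tested, 9 were called lower and none higher, with a median of -0.67. Ugt1a1, which conjugates bilirubin, read -0.03, -0.07, -0.02 and -0.06 at 0.01 nM and -1.08, -1.18, -1.88 and -2.10 at 1 nM. Rat B fell further than rat A, and the step was -1.52 ± 0.29 (2.86-fold lower, adjusted p = 0.0178, and up to 0.196 with 1 animal left out). Ugt2a3 fell by 1.46 (up to 0.137 on the same measure), Ugt2a1 by 0.73, Sult1b1 by 1.11, Sult1a1 by 0.84 and Sult2a6 by 0.73. The UGT1A transcripts share exons and the sulfotransferases have close copies, so single members of these families are uncertain. Without rat A or rat B at both doses 3 and 2 genes were called lower, 2 without rat A at 0.01 nM, 3 without rat B at 1 nM, and 5 and 10 in the other leave-outs.

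Some phase I genes outside the battery were lower too. Of 18 genes governed by the xenobiotic receptors CAR and PXR, 8 were called lower and none higher (median -0.34). PXR itself, Nr1i2, fell by 0.65, from between -0.09 and 0.10 to between -0.68 and -0.62 (adjusted p = 0.000829). Cyp2b3 fell by 0.74, Cyp3a18 by 0.67, Cyp2c6v1 by 0.71, Cyp2b12 by 0.47 and P450 reductase, Por, by 0.63. Of 29 further cytochromes, 4 were called lower and none higher: Cyp4f4 by 1.21, Cyp17a1 by 0.98, Cyp2c22 by 1.00 and Cyp2j4 by 0.53. Leaving out an animal gave 2 to 6 such calls, 2 without rat B at both doses or rat A at 0.01 nM. With the animal as a block Cyp2c22 and Cyp2j4 lost their calls (adjusted p = 0.0512 for both). Of 18 glutathione transferases, limma called Gstm7 alone, lower by 0.36, while Gstp1 at 0.97 did not pass (adjusted p = 0.318). With animals left out, 4 or 5 of the CAR and PXR genes were called without rat A at 0.01 nM (4), without rat B at 1 nM or without either rat at both doses (5 each).

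Amino acid breakdown and the urea cycle had 12 of 36 genes called lower, 10 of them with separate arrays, and none higher (median -0.27). Glud1, glutamate dehydrogenase, fell by 0.92 and its other probes gave -0.80 and -0.85. The urea cycle enzymes Cps1 and Arg1 fell by 1.03 and 0.93, and Cbs, of cysteine formation, by 0.59. Cps1 differed between the rats, at -0.39 and -0.57 in A and -1.10 and -1.30 in B at 1 nM. Counts with an animal left out were 3 without rat B, 4 without rat A at 0.01 nM or rat B at 1 nM, 7 without rat B at 0.01 nM, and 8 and 14 in the other leave-outs.

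Among 27 liver transcription factors, 4 were called lower and 1 higher, the latter being Pou3f1. Onecut1, or HNF6, read -0.01, -0.04, 0.34 and 0.30 at 0.01 nM and -1.52, -1.58, -1.28 and -1.56 at 1 nM. It fell by 1.63 ± 0.23 (3.10-fold lower, adjusted p = 0.00431, and 0.07 at most with 1 animal left out). Foxa1, a pioneer factor of liver genes, fell by 0.85 (adjusted p = 0.000182), with ratios of -0.16 to 0.05 and then of -1 to -0.80. Zfp354a, a zinc finger repressor, fell by 1.69 ± 0.13, from -0.02, 0.08, -0.06 and 0.00 to -1.90, -1.81, -1.49 and -1.55. Klf15 fell by 0.63. Counts called lower were 3 to 5 with animals left out.

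Secreted proteins were called lower in part. Of 37 plasma proteins and apolipoproteins 9 were lower and none higher (median -0.33), F11, coagulation factor XI, by 1.41, Serpind1 by 0.81, the lipoprotein assembly protein Mttp by 0.95 and F10 by 0.48. Klkb1, the precursor of plasma kallikrein, which is a neighbour of F11 in the contact system of coagulation, fell by 1.41 as well, from 0.25, 0.33, 0.07 and 0.12 to -1.18, -1.10, -1.30 and -1.29. At an unadjusted p under 0.05, 27 of the 37 were lower, against 9% of all genes. With 1 animal left out 1 to 16 were called, 1 without rat A at 0.01 nM, 3 without rat B, 4 without rat B at 1 nM, 6 without rat B at 0.01 nM and 16 without rat A at 1 nM. Acute phase and complement genes were called lower in 7 of 26 and higher in 2, Lbp (0.36) and Il1r1 (0.26). C6, of the membrane attack complex, fell by 0.74 (adjusted p = 0.000254), Il6r by 0.74 and Stat3 by 0.46, the last with -0.25 on a second probe that did not pass (adjusted p = 0.274). With an animal left out 3 to 11 of these were called lower, the extremes being without rat B at both doses and without rat A at 1 nM, with 4 without rat A at 0.01 nM or rat B at 1 nM. The 2 called higher became 1 without rat B at 1 nM and 0 in the other leave-outs.

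Surface and stress genes gave smaller counts, where 1.39% of all genes were called higher and 2.35% lower. Of 34 adhesion, cytoskeleton and matrix genes 4 were called lower: Emp1, an epithelial membrane protein, by 1.76, Ccn2, a matricellular growth factor, by 1.16, the tight junction protein Cldn1 by 1.07 and N-cadherin, Cdh2, by 0.86. Emp1 moved from 0.27, 0.34, 0.00 and 0.07 to -1.45, -1.46, -1.74 and -1.74, although a dimmer probe of it gave -0.65 (adjusted p = 0.0333). Tmem255b, a transmembrane protein outside the lists, fell by 1.90 ± 0.19, the largest of the 15 decreases (3.74-fold lower, adjusted p = 0.000524), from 0.10, 0.43, -0.18 and -0.01 to -2.08, -1.77, -1.70 and -1.71. In the unfolded protein response 4 of 22 were lower, Edem1 by 0.62, Herpud1 by 0.70, Hsp90b1 by 0.47 and Sel1l by 0.34. Of 28 immediate-early and MAP kinase feedback genes, Klf4 rose by 0.58 while Dusp1 and Klf10 fell by 0.87 and 0.85. Bax, a promoter of apoptosis, rose by 0.45 while Sesn1 fell by 0.98 and Cdkn1a, a cell cycle inhibitor, by 0.46, out of 21 p53 targets. In the cell cycle list limma called 0 of 28 genes. On an unadjusted p under 0.05, 2 were higher and 3 lower, against 7.86% and 9% of all genes. Retinoid enzymes Dhrs3, Rdh7, Rdh10 and Rdh16 fell by 0.51, 1.13, 0.26 and 0.33, the clock genes Bhlhe40 and Bhlhe41 by 0.73 and 0.26, and Igf1 by 0.49. With an animal left out the counts called lower ran from 3 to 13 for adhesion, from 1 to 8 for the unfolded protein response and from 0 to 3 for retinoid enzymes, in each list lowest without rat B at both doses and highest without rat A at 1 nM. Without rat A at 0.01 nM, without rat B at 1 nM or without rat B at both doses, the counts called lower of clock genes, p53 targets, immediate-early genes and the growth hormone and IGF list were all 0. Without rat A at both doses they were 2, 0, 1 and 0 in that order. Klf4 lost its call without rat A at both doses or at 0.01 nM. For Igf1, 2 of 3 other probes did not pass, and for Bhlhe41 the dimmer probe gave 0.04.

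Single markers of liver cell types were mostly uncalled. Of the hepatocyte markers 1 of 10 was called lower, Cps1, and Alb (-0.22), Ttr (-0.22) and Apob (0.33) did not pass. Apob was the only 1 of the 10 with a step above 0, and the median step was -0.22. At an unadjusted p under 0.05, 4 of the 10 were lower and 1 higher, against 9% and 7.86% of all genes. Kupffer and leukocyte markers (19 tested) and endothelial markers (13) had no call, with 1 lower and 1 higher at an unadjusted p under 0.05. Vim, a stellate and fibroblast marker, fell by 0.78, from 0.15, 0.08, 0.02 and -0.14 to -0.64, -0.83, -0.69 and -0.83, 1 of 17 such markers (adjusted p = 0.0175, and up to 0.163 with 1 animal left out). Anxa13, a cholangiocyte marker, fell by 1.26 (adjusted p = 0.000269), 1 of 17, while Krt19 (-0.15) and Epcam (-0.25) did not pass. The part of these cells in the decreases above was not tested.

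Of the 15 largest decreases, 12 kept their call with every animal left out in turn, the exceptions being Onecut1, Ugt1a1 and Ugt2a3, and all 15 kept their sign. The step was larger in rat A for 8 and in rat B for 7, and for 1 of them the animals differed by over 1.5 times. Fam117b, the last of the 15, showed the widest gap between the rats at the lower dose, with 0.35 and 0.37 in A and -0.14 in both arrays of B, and fell by 1.40 (adjusted p = 0.00169).

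A few genes differed from DMSO at 0.01 nM already. Against DMSO limma called 157 genes at 0.01 nM (0.451%), 33 higher (0.0948%) and 124 lower (0.356%), and 3691 at 1 nM (10.6%), 1623 higher (4.66%) and 2068 lower (5.94%). These comparisons share arrays with the step. Hsd17b2, which inactivates oestradiol and testosterone, read 0.29, 0.25, 0.26 and 0.22 at 0.01 nM and 0.72, 0.64, 0.72 and 0.68 at 1 nM. It was above DMSO at either dose and rose by 0.43 ± 0.05 in the step (adjusted p = 0.00129). Entpd5, a nucleotide hydrolase of the endoplasmic reticulum, took the other course, with 0.52, 0.66, 0.42 and 0.53 at 0.01 nM and -0.01, 0.15, 0.02 and 0.05 at 1 nM. It was above DMSO at the lower dose only, and the step was -0.48 ± 0.10 (adjusted p = 0.0317, and up to 0.226 with 1 animal left out). Ero1a, an oxidase of protein folding, stood at 0.28 and 0.36 against DMSO, and its step of 0.08 did not pass (adjusted p = 0.616).

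The 124 genes called lower at 0.01 nM were mostly dim, and mostly low on 2 arrays. Of them 107 had a mean level below the median of all genes tested (6.73), and for 119 both 0.01 nM arrays with TCDD RNA in red lay below the other 6 arrays. On those 2 arrays the median ratio of these genes was -0.71 in rat A and -0.69 in rat B. On the swapped arrays of the same rats it was -0.01 and -0.02, and on the arrays at 1 nM it lay between -0.02 and 0.04. Their DMSO channel had a median log2 intensity of 6.99 and 6.89 on those 2 arrays and of 6.18 to 6.28 on the other 6, while the TCDD channel ran from 6.11 to 6.26 on all 8. Krt76, a keratin, shows the pattern, with -0.98, 0.00, -1.14 and 0.08 at 0.01 nM and 0.08, 0.05, 0.00 and -0.03 at 1 nM. It was called higher in the step by 0.54, and the call was lost when the 0.01 nM values came from the swapped arrays alone (-0.01, adjusted p = 0.929). Kif5a, Gpr141, Phka1, Csn3 and Pcnx2 lost their calls in the same way, with steps of 0.01 to 0.13. Nrg1 (0.58, adjusted p = 0.0628), Nfkb1 (0.59, 0.0553), Cdkn1a (-0.40, 0.0506) and Sel1l (-0.33, 0.0513) also lost theirs, with steps close to the main ones. Under that setting the step had 424 genes higher and 801 lower, of which 423 and 779 had separate arrays. All 30 of the largest steps kept their call there. The plasma protein count went from 9 to 21 lower, the acute phase count from 7 to 13 and the hepatocyte marker count from 1 to 6. The 1 nM values kept both orientations in that setting, so dye differences do not cancel in its steps. At 0.01 nM the median ratio of the hepatocyte markers was -0.17 in both rats with TCDD RNA in red. With it in green the median was 0.32 in rat A and 0.54 in rat B. The part of dye in these counts was not tested.

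**Figure D4:**
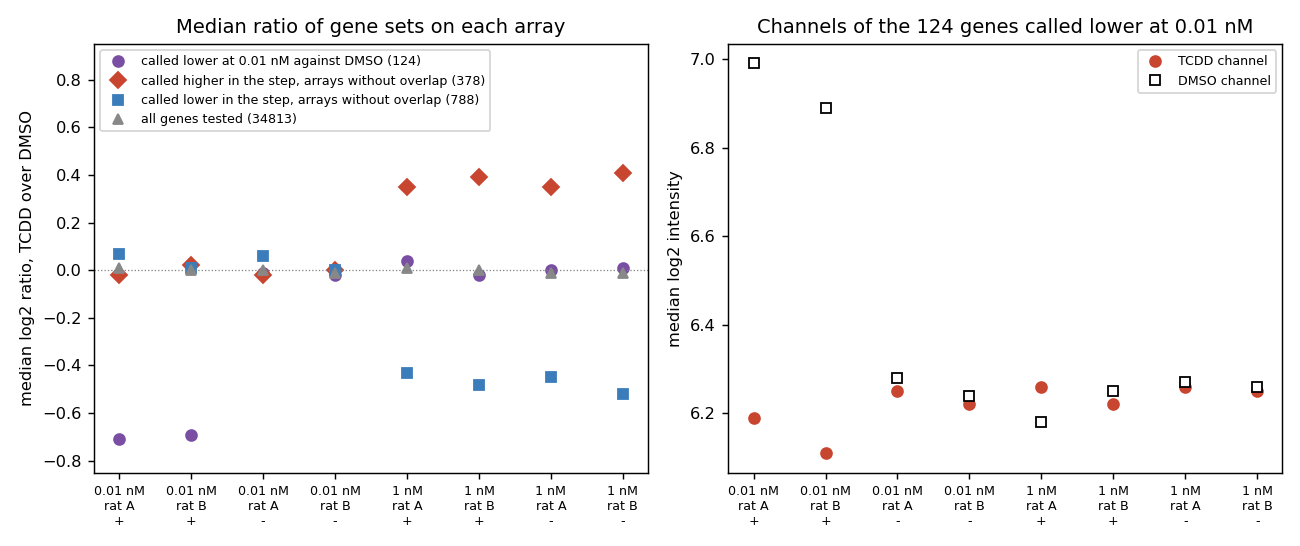
Left, median log2 ratio of TCDD over DMSO on each of the 8 arrays for gene sets named in the key; right, median log2 intensity of the TCDD and DMSO channels of the 124 genes called lower at 0.01 nM. For these genes both 0.01 nM arrays with TCDD in red stand apart, at -0.71 and -0.69, through a brighter DMSO channel. The genes called higher or lower in the step with separate arrays differ between the doses on all arrays, as their choice requires.

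TCDF and PeCDF are dibenzofurans, which differ from the dioxin in the ring that joins the chlorinated rings, and PeCDF carries a further chlorine. The steps of the 3 compounds were set side by side because each spans a 100 times rise, from 0.1 to 10 nM for TCDF and from 0.02 to 2 nM for PeCDF. The doses themselves differ, and so does the scan session, so compound, dose and session cannot be told apart. In their own steps TCDF had 31 called genes (0.0891%; 0.0172% higher and 0.0718% lower) and PeCDF 29 (0.0833%; 0.0259% higher and 0.0575% lower). The differences between the TCDD step and each of these were tested over all genes, which makes 2 tests per gene, each adjusted over all genes tested. The TCDD step differed from the TCDF step for 20 genes (0.0575%), 18 with the larger value for TCDD (0.0517%) and 2 with the smaller (0.00575%). It differed from the PeCDF step for 6 (0.0172%), 4 (0.0115%) and 2 (0.00575%) in the same order. Of these, 15 in the TCDF test and 3 in the PeCDF test are among the 124 genes called lower at 0.01 nM.

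Pfkfb1 differed from both furans. Its step of -1.53 for TCDD stood against -0.81 for TCDF and -0.60 for PeCDF, with differences of -0.72 ± 0.09 (adjusted p = 0.0251) and -0.93 ± 0.09 (adjusted p = 0.0149). Pou3f1 rose by 1.53 with TCDD and had steps of 0.28 with TCDF and 0.56 with PeCDF. The difference from TCDF was 1.25 ± 0.15 (adjusted p = 0.0251), and that from PeCDF, 0.98, did not pass (adjusted p = 0.107, 95% interval 0.64 to 1.31). Cyp1b1 rose with all 3 compounds, by 3.99, 1.83 and 2.79. The difference from TCDF of 2.16 ± 0.30 passed (adjusted p = 0.0463), and that from PeCDF of 1.20 did not (adjusted p = 0.577, interval 0.54 to 1.86). When the 0.01 nM values came from the swapped arrays alone, Pou3f1, Pfkfb1 and Cyp1b1 kept their calls against TCDF, as did Pfkfb1 against PeCDF. Gpr141, Kif5a and Krt76 lost theirs. With an animal left out, Cyp1b1 against TCDF passed only without rat A at 1 nM (adjusted p up to 0.14, difference 2.05 to 2.28). Pou3f1 and Pfkfb1 against TCDF each lost the call without rat A at 0.01 nM (adjusted p = 0.0647), and Pfkfb1 against PeCDF lost it there and without rat A at both doses (up to 0.115).

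Some battery genes and growth factors gave wide intervals. For Nqo1 the 95% interval of the TCDD minus TCDF difference ran from -0.98 to 0.64, for Tiparp from -0.26 to 1.94 and for Aldh3a1 from -0.63 to 2.61. Against PeCDF the intervals were -1.20 to 0.43, -0.85 to 1.34 and -0.77 to 2.46. Cyp1a2 is left out here because its probe was saturated at 1 nM TCDD. Ereg had steps of 2.78, 0.36 and 1.12, and its difference from TCDF of 2.42 missed the threshold (adjusted p = 0.0607, interval 1.64 to 3.21). Areg, with 2.27, 0.43 and 0.84, also missed it (adjusted p = 0.396, interval 0.84 to 2.85). These intervals are not adjusted for the number of genes.

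**Figure D5:**
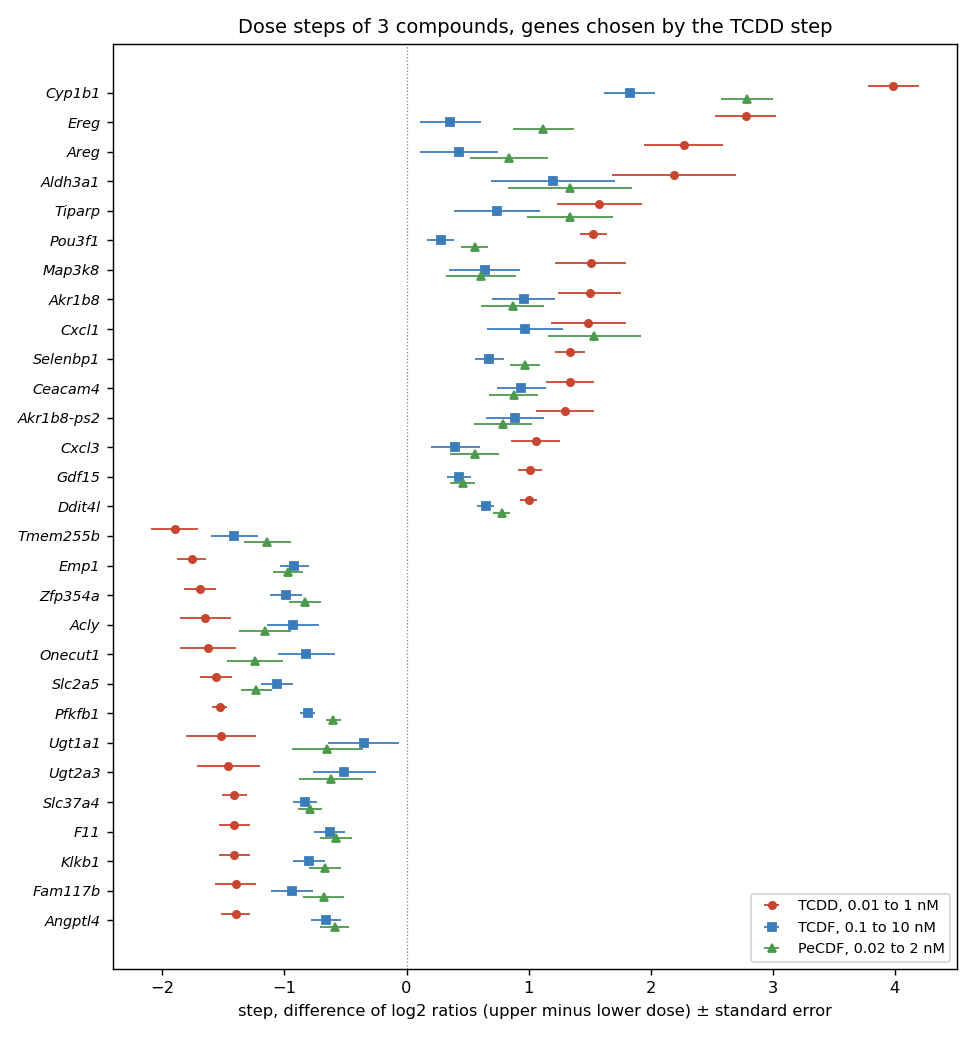
Dose step (upper minus lower dose, log2, ± SE of the fit, 2 animals per dose) of TCDD, TCDF and PeCDF for the genes with the 15 largest increases and 14 of the 15 largest decreases of TCDD (rows). The genes were chosen by the TCDD step, so its larger size over the set is not a finding; Pfkfb1, for example, is at -1.53, -0.81 and -0.60.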

How the data were processed

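Per the file headers, the authors' scanner files hold mean spot signals and local backgrounds in units of intensity, and a log10 ratio of red to green that the authors' software had background-subtracted and dye-normalized. The deposited table is that log10 ratio turned to test over DMSO (largest difference 4.995e-06). The submitters' processing notes name Feature Extraction 9.1, and the file headers another release.

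Intensities were corrected with normexp (offset 50) and loess in limma 3.58.1 (R 4.3.3, with the data.table package, version 1.17.8), with the 2256 control spots at weight 0 and marked spots (0.0921%) dropped. Spots of a probe and the 2 orientations of a rat were averaged, and a value was missing where either was (859 values). Kept probes (37824 of 41012) passed the scanner software's background test in all 4 test channels of some group or in 14 of 28 DMSO channels. Each gene is its brightest probe. The 7 group means of 14 values were fitted with empirical Bayes (3.21 degrees of freedom from the prior, 7 residual). The threshold was an adjusted p under 0.05 over 34813 genes, of which 15176 had a symbol. Log2 values are differences of ratios, and folds are their antilogs. The script was tested on simulated data. Symbols came from the supplied RefSeq table, by accession for 8058 probes, gene identifier for 8673, symbol for 1367 and synonym for 419, and 22495 probes had none.

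A few genes that the naming rule picks are not reported here. Members and lists were chosen with earlier results of these data known. Genes named are the 15 largest steps each way among called genes with separate arrays, all battery members, called members of each list (chiefly the 4 with the smallest p, and others chosen after their values were seen), the 5 largest each way in the tests between steps and at 0.01 nM, and uncalled members singled out after their values were seen. Rats are the same across groups, so animals pair by design, although the correlation of the A minus B differences between the TCDD doses was 0.00 (-0.39 to 0.56 over 21 pairs of groups). Alternatives changed background, normalization, filter, probe choice, samples, animal block and dye or scan day.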

Additional observations from a re-analysis of the deposited data

Results flagged for a closer look

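In 93 groups of 4 arrays examined, 2 held an array far from the others. Chance gives about 1 in 20 for 4 independent values, which these arrays, 2 dye orientations of each of 2 rats, are not. Ddit4l at 1 nM read 1.17 on the green array of rat A and 1.24 to 1.25 on the others. Cyp1a2 at 1 nM read 2.26 on the green array of rat B and 1.62 to 1.70 on the others.

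The TCDD step (0.01 to 1 nM) differed from the TCDF step (0.1 to 10 nM) by limma for Pou3f1 (1.25), Pfkfb1 (-0.72), Cyp1b1 (2.16), Gpr141 (0.48), Kif5a (0.48) and Krt76 (0.61). From the PeCDF step (0.02 to 2 nM) it differed for Pfkfb1 (-0.93) and Gpr141 (0.54). Gpr141, Kif5a and Krt76 belong to the genes whose ratios were low on the 2 arrays at 0.01 nM with TCDD RNA in red.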

How the results depend on the processing

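The 30 largest steps kept their sign under every alternative that gave them a value, and the counts of calls moved. The main counts were 485 genes higher and 818 lower in the step (378 and 788 with separate arrays), 20 for the difference from TCDF and 6 for that from PeCDF. Counts are given in this order below, and the cause of each move was not tested unless stated.

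Agilent's own log ratio and the deposited values gave 252, 483, 175, 463, 0 and 2. With no background correction 498 genes were lower (467 with separate arrays), and median centring left 4 higher and 2 lower, all with separate arrays. No filter on dim probes gave 34 genes for the difference from TCDF. The first scan session alone gave 214, 489, 177 and 482. The TCDD groups alone, which leave fewer samples for the spread, gave 34, 133, 32 and 132. Array-level fits, which count both arrays of a rat, gave 1414, 2215, 1199, 1833, 341 and 174 with a dye term, and 1351, 2130, 1155 and 1788 with the scan day as a block. Arrays with TCDD RNA in red alone gave 38 and 30 for the differences between steps. Those with it in green alone gave 287 higher, 2 and 2. An adjusted p under 0.01 gave 143, 294, 92 and 293. Taking the 0.01 nM values from the green arrays alone, an alternative chosen after seeing the data, gave 35 and 31 for the differences between steps. The 1 nM values kept both orientations, so dye differences do not cancel there. With the animal as a replicate block the step had 584 genes higher and 892 lower, and the difference from PeCDF had 2 genes. Among the genes named, the block also ended the calls of Gpr141 between steps, and moved immediate-early genes called higher from 1 to 3, p53 targets called higher from 1 to 2, stellate markers called lower from 1 to 2 and other cytochromes called lower from 4 to 2.

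With 1 animal left out, the step had 294 genes higher and 736 lower without rat A at both doses, 422 and 346 without rat B at both, 660 and 1730 without rat A at 1 nM, 218 and 442 without rat B at 1 nM, 303 and 252 without rat A at 0.01 nM, and 716 and 546 without rat B at 0.01 nM. Those with separate arrays were, in the same order, 204 and 708, 269 and 337, 578 and 1659, 173 and 426, 162 and 249, and 355 and 526. Differences from TCDF were called for 154, 24, 567, 6, 0 and 130 genes, and those from PeCDF for 1, 4, 169, 5, 0 and 98. A dose left with 1 rat is assumed there to vary like the other groups.

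Signs turned for 6 of the genes named, of which Krt76 and Bhlhe41 had been called. Cyp1a1, saturated throughout, moved from -0.01 to 0.05 (no background correction), 0.01 (normexp offset of 16), 0.11 (median centring), 0.18 (marked spots kept), 0.10 (animal block), 0.42 (red arrays alone) and 0.14 (without rat A at 0.01 nM or at both doses). Cyp2s1 went to -0.06 on red arrays alone. Krt76 went to -0.03 on green arrays alone and to -0.01 with the 0.01 nM values from them. Ugt1a6 was -0.06 without rat A at both doses and -0.07 without it at 1 nM. The dimmest probe gave -0.18 for Ero1a and 0.04 for Bhlhe41.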
